A study of Mus musculus with 16 samples.

Results

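Trimethylation of histone H3 at lysine 4 (H3K4me3) was compared between arid4b-delta and wild-type (WT) mouse embryonic stem cells that had been directed to endoderm. The comparison rests on 2 of the 16 samples of the study, 1 chromatin immunoprecipitation sequencing (ChIP-seq) library per genotype, each deposited as a list of peaks, that is of intervals where the authors' peak caller found more reads than background. Both lists come from the CJ9 stem cell line: the labels give genotype arid4b-delta (arid4b∆ in the titles) for the first and WT for the second. Both cultures were directed to endoderm for 5 days and fixed with formaldehyde for 8 min. The labels state neither which bases of Arid4b were removed, nor the number of clones or cultures behind a library, nor any cell sorting. The study also profiled H3K27me3 and H3K27ac in endoderm, and the 3 marks in mesoderm-directed cells of both genotypes, which gave 12 peak lists in all. Peaks were shared where they overlapped by at least 1 bp. A promoter was marked where a peak touched the 1000 bp on either side of a transcription start site of a protein-coding gene. Where no start was listed for a gene, both of its ends were used.

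H3K4me3 is written by the Set1 and MLL (Kmt2) methyltransferases and lies at the starts of active genes and at most CpG-rich promoters. In stem cells many promoters of developmental genes carry it together with H3K27me3, the mark laid by Polycomb repressive complex 2, a state called bivalent, whereas H3K27ac accompanies active promoters and enhancers. Arid4b is a subunit of the Sin3 histone deacetylase corepressor, which removes acetyl groups from histones and which also binds H3K4 demethylases of the Kdm5 family.

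Sequences of 8 promoters illustrate where the lists differed. They are 4 of the strongest promoters with a peak in arid4b-delta and none in WT, of which Hoxa13 was taken as a Hox gene, and the 3 strongest with a peak in WT and none in arid4b-delta. The last, chosen after its values were seen, is that of the serum albumin gene Alb, which had no peak in either list. Each runs 5′ to 3′ on the strand of the gene from 250 bases before to 50 bases after the listed start, is taken from RefSeq (build GRCm38.p6), and has CpG dinucleotides in capitals.
Fam124a: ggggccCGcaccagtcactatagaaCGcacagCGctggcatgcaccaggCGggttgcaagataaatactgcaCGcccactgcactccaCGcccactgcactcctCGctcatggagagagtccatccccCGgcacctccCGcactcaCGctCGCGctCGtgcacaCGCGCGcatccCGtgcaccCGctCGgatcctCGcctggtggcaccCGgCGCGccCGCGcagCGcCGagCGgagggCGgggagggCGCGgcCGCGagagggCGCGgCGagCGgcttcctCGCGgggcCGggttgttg
Plppr2: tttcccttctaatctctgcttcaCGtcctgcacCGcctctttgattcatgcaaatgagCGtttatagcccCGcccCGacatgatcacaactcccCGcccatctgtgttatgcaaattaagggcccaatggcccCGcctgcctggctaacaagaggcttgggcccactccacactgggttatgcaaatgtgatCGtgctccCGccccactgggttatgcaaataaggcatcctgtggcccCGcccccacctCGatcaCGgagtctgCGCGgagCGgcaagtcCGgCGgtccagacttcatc
Dio3: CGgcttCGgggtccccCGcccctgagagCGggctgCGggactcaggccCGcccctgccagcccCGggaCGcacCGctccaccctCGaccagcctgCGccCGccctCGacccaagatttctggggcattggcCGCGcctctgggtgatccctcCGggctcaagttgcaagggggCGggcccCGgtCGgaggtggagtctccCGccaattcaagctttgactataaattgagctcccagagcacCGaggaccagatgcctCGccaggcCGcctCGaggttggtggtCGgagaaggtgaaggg
Hoxa13: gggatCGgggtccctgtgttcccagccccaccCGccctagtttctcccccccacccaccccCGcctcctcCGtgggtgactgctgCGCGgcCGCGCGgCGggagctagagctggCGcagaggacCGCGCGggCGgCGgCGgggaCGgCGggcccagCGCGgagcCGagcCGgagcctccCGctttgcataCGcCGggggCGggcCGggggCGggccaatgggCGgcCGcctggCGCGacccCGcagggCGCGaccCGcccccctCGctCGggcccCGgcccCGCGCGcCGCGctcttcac
Uty: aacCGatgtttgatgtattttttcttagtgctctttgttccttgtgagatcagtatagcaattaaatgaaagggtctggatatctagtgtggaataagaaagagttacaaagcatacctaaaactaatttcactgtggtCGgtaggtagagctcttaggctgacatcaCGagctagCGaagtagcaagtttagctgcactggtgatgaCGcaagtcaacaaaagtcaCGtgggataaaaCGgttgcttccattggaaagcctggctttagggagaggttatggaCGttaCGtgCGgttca
Eif2s3y: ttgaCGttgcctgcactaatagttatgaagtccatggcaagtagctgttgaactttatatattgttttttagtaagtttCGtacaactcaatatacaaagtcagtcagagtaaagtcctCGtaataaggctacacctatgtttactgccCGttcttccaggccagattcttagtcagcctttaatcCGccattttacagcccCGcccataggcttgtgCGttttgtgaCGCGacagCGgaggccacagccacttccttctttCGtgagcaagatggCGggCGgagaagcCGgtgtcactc
Rtl8a: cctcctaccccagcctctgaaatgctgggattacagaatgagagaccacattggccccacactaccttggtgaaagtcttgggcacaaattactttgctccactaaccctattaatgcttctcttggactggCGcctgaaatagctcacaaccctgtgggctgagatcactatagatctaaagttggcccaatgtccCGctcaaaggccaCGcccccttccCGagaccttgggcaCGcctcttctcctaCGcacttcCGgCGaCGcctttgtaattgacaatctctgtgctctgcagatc
Alb: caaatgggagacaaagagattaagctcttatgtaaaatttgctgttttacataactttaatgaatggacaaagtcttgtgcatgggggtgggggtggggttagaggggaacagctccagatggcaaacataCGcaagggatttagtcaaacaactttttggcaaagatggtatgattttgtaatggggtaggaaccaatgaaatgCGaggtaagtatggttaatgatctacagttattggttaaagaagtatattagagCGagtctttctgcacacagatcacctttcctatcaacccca

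The windows lie at chr14:62555487-62555786 (Fam124a, plus strand), chr9:21936760-21937059 (Plppr2, plus), chr12:110278980-110279279 (Dio3, plus), chr6:52260831-52261130 (Hoxa13, minus), chrY:1245710-1246009 (Uty, minus), chrY:1010345-1010644 (Eif2s3y, plus), chrX:53643714-53644013 (Rtl8a, minus) and chr5:90460620-90460919 (Alb, plus). CpG dinucleotides numbered 40 at Fam124a, 17 at Plppr2, 25 at Dio3 and 45 at Hoxa13, which are marked in arid4b-delta. They numbered 10 at Uty, 14 at Eif2s3y and 9 at Rtl8a, which are marked in WT. The class medians were closer, 14 at arid4b-delta-only and 9 at WT-only promoters, so these windows do not stand for their classes. Alb had 3.

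The sex chromosomes set the libraries apart, although both are labelled CJ9. The Y chromosome had 34 arid4b-delta peaks, the first of them at base 9820485, and 16 WT peaks. None of its 256 protein-coding genes had a marked promoter in arid4b-delta, against 3 in WT (Uty, Eif2s3y and Ddx3y), and the same 0 against 3 were found in the mesoderm libraries. On the X chromosome there were 963 arid4b-delta and 690 WT peaks, a ratio of 1.40, against ratios of 1.04 to 1.20 on the 19 autosomes, and the arid4b-delta peaks covered 2.10 times the bases of the WT peaks there, against 1.57 to 1.72 times on autosomes. In mesoderm the X ratio of peak numbers was 1.53 and the autosomal ratios ran from 1.16 to 1.29. The part of these differences in the results was not tested directly. With chromosomes 1 to 19 alone, the overlap shares of both lists, the counts of promoters marked in a single genotype, the promoter share of arid4b-delta-only peaks, the median width ratio, the share wider in WT, the Hox count and the WT H3K27me3 share were within their intervals or within 1.5 times of the values for all chromosomes; the other values were not recomputed.

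The labelled cell type was set beside promoter marks of textbook markers. Of 25 endoderm markers, 19 (76%) had H3K4me3 in arid4b-delta and 17 (68%) in WT, and 4 (16%) had H3K27ac in arid4b-delta and 7 (28%) in WT. Over all genes, H3K4me3 lay at 60.2% in arid4b-delta and 55.2% in WT, and H3K27ac at 26.9% in arid4b-delta and 27.3% in WT. The defining factors Sox17, Foxa2, Gata4 and Gata6 had no promoter H3K27ac in either genotype, and Gata4 and Cer1 had no H3K4me3 either. Of 13 markers of undifferentiated cells, 12 had H3K4me3 in arid4b-delta and 11 in WT, and 5 had H3K27ac in arid4b-delta and 6 in WT. Of 12 primitive streak and mesoderm markers, 9 had H3K4me3 in arid4b-delta and 5 in WT, with H3K27ac at 0 of them in both. All 8 neuroectoderm markers had H3K4me3 in arid4b-delta (100%) and 7 in WT (87.5%), higher shares than those of the endoderm markers, with H3K27ac at 0 in both. Of 8 fibroblast (feeder cell) markers 3 had H3K4me3 in arid4b-delta and 2 in WT. In cultures of mixed cells, fewer cells with a mark and less of the mark in each cell cannot be told apart.

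Arid4b itself was marked in both genotypes. Its promoter window held 2 arid4b-delta peaks, the widest of 1700 bp at chr13:14063762-14065461, and 3 WT peaks, the widest of 880 bp at chr13:14062573-14063452, and H3K27ac was present in both. A mark at the start of a gene is no check of a deletion elsewhere in it.

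Nearly the whole WT list lay inside the arid4b-delta list, and the arid4b-delta list held many further weak peaks. There were 25248 arid4b-delta peaks and 22224 WT peaks on chromosomes 1 to 19, X and Y, and each interval in either list had 1 summit. In arid4b-delta 16520 peaks touched a WT peak, or 65.4% (95% exact Clopper-Pearson interval 64.8 to 66.0%), and 8728 did not. In WT 21848 peaks touched an arid4b-delta peak, or 98.3% (98.1 to 98.5%), and 376 did not. Such intervals cover counting error alone: with 1 library per genotype there is no replicate error, so no test between genotypes was made. The depth of the libraries is unknown, so a genotype and its library cannot be told apart.

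The fold enrichment of a peak over background is the authors' own value, and it ranks peaks here within a list. Each list was divided by fold into 10 equal parts. In the lowest of these, 10.02% of arid4b-delta peaks were shared, in the fourth 44.2%, in the fifth 75.3%, and in the sixth 94.7%. In the lowest WT part 89.5% were shared. With the arid4b-delta list reduced by fold to the 22224 peaks of the WT list, the overlapping share was 73.1% for arid4b-delta and 97.3% for WT. That equal-length list still covered 20.3 Mb in arid4b-delta, against 12.6 Mb in WT.

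**Figure D1:**
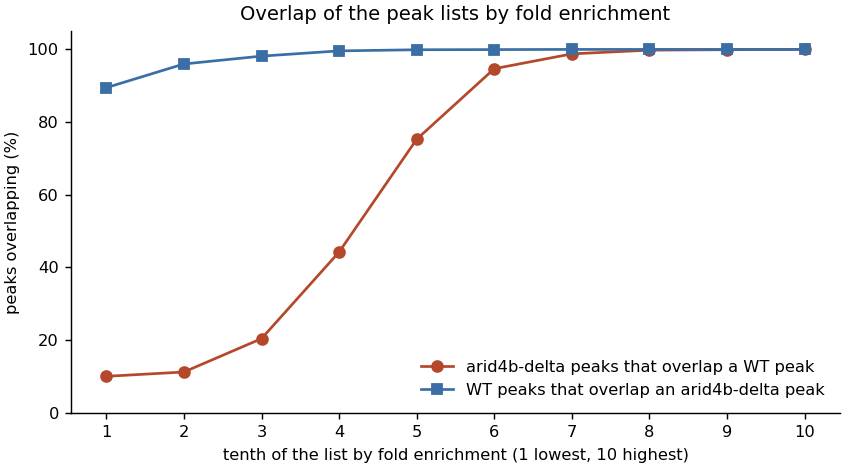
Share of peaks (%) that overlap the other genotype's list by at least 1 bp, for each 10% of its list ranked by fold enrichment, for arid4b-delta (circles) and WT (squares). The arid4b-delta line starts at 10.02% in the lowest part and reaches 94.7% in the sixth, and the WT line starts at 89.5%.

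Peaks were wider in arid4b-delta. The median width was 682.5 bp in arid4b-delta and 476 bp in WT, the middle 50% of widths ran from 287 to 1201 bp in arid4b-delta and from 258 to 773 bp in WT, and the narrowest peak was 146 bp in both. Peaks of 2000 bp or more numbered 1390 in arid4b-delta (5.51%) and 130 in WT (0.585%). All peaks together covered 21.0 Mb in arid4b-delta and 12.6 Mb in WT. The other genotype's list covered 58.9% of the arid4b-delta bases and 98.0% of the WT bases. In the mesoderm libraries the medians were closer, 695 bp in arid4b-delta and 639 bp in WT, with 23.6 Mb covered in arid4b-delta and 16.3 Mb in WT.

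**Figure D2:**
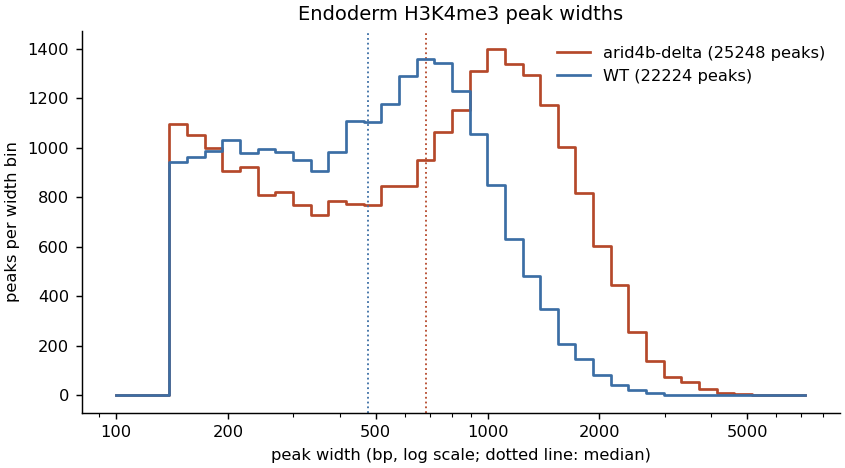
Number of endoderm H3K4me3 peaks per width bin (width in bp on a log scale) for arid4b-delta and WT, with dotted lines at the medians of 682.5 bp in arid4b-delta and 476 bp in WT. The arid4b-delta distribution has its high point near 1000 bp and extends further to the right.

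In many regions a single arid4b-delta peak spanned several WT peaks. Overlapping peaks of the lists were merged into 16314 regions present in both genotypes. Of these, 11709 (71.8%) held 1 arid4b-delta peak and 1 WT peak, and 4402 (26.98%) held 1 arid4b-delta peak over 2 or more WT peaks, with up to 7 WT peaks under a single arid4b-delta peak. The opposite arrangement, 2 or more arid4b-delta peaks over 1 WT peak, occurred in 119 regions (0.729%).

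The widest arid4b-delta peak spanned 7243 bp at chr17:34116638-34123880, over the promoters of Brd2, which encodes a BET-family reader of acetylated histones, and of the class II antigen-loading gene H2-DMa. In WT the same stretch held 4 peaks, the widest of 3027 bp. The next widest in arid4b-delta covered the promoter of Tnrc18 (5834 bp, over 4 WT peaks of at most 1913 bp), that of Ajuba, a LIM-domain adaptor of cell junctions (5252 bp, over 3 WT peaks of at most 2311 bp), a distal position inside Ahdc1 (5030 bp, over 2 WT peaks of at most 1719 bp) and the promoter of Anp32a, a histone chaperone (4921 bp, over 3 WT peaks of at most 2414 bp). The 5 widest WT peaks were each matched by an arid4b-delta peak at least as wide. They lay at Zic2, a zinc-finger factor of early neural development (3744 bp in arid4b-delta, 3700 bp in WT), inside the cadherin gene Fat1 (4643 bp in arid4b-delta, 3367 bp in WT), at Ewsr1 and Rhbdd3 (3419 bp in arid4b-delta, 3078 bp in WT), at Foxo1, a transcription factor restrained by insulin signalling (3356 bp in arid4b-delta, 3040 bp in WT) and at Brd2.

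At promoters the shift to wider peaks was general. Both genotypes had a peak at 12071 promoters, where the widest peak had a median width of 1246 bp in arid4b-delta and 738 bp in WT. The median of the width ratio, arid4b-delta over WT, was 1.63 (95% binomial interval of the median over promoters 1.62 to 1.65; middle 50% 1.30 to 2.24). The arid4b-delta peak was the wider at 11799 of these promoters (97.7%), the WT peak at 269 (2.23%), and the widths were equal at 3. When all peak bases within 5000 bp of the start were summed, which counts split peaks together, the median ratio was 1.496.

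The ratio differed with the other marks in WT. It was largest at the 1966 promoters with H3K27me3 and no H3K27ac, where the median width was 1075 bp in arid4b-delta and 518 bp in WT and the median ratio 1.96 (1.91 to 2.02). At the 5555 promoters with H3K27ac and no H3K27me3 the medians were 1465 bp in arid4b-delta and 876 bp in WT, with a ratio of 1.57 (1.55 to 1.59). The 4242 promoters with neither mark had a ratio of 1.61 (1.58 to 1.63) and the 308 with both marks 1.51 (1.45 to 1.64). With bases summed within 5000 bp the classes kept this order, with ratios of 1.77 with H3K27me3 alone, 1.43 with H3K27ac alone, 1.53 with neither and 1.40 with both.

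Among single promoters, the largest differences in favour of arid4b-delta were several times the median width. The bidirectional promoter of Spred3, an inhibitor of Ras signalling, and Ggn carried a peak of 3973 bp in arid4b-delta, against at most 754 bp in WT. Actg1, which encodes cytoplasmic gamma-actin, had 4566 bp in arid4b-delta and 1347 bp in WT. Trim71, a regulator of stem cell proliferation and target of the let-7 miRNA, had 4188 bp in arid4b-delta and 791 bp in WT. Hes1, a Notch target and transcriptional repressor, had 4762 bp in arid4b-delta and 1195 bp in WT, Smad7, an inhibitor of TGF-beta signalling, 4627 bp in arid4b-delta and 1325 bp in WT, and Sp8, a factor of limb and forebrain development, 4437 bp in arid4b-delta and 1098 bp in WT. Hes1 had 4 WT peaks in its window and Sp8 4 also, so these figures include such joined intervals: the bases within 5000 bp were 6061 in arid4b-delta and 3875 in WT for Hes1, and 5094 in arid4b-delta and 2637 in WT for Sp8.

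The 10 promoters with the largest differences in favour of WT included Ccnt2, the cyclin T2 subunit of a transcription elongation kinase (1690 bp in arid4b-delta, 2230 bp in WT), Med17, a Mediator subunit (670 bp in arid4b-delta, 1415 bp in WT), and Fgf8, a fibroblast growth factor of the primitive streak (1236 bp in arid4b-delta, 1834 bp in WT). The others were Hsdl2, Cfap298, Hdhd2, Sh3bp5l, Fdxacb1, Dnajb12 and St6galnac2. The bases summed within 5000 bp were higher in arid4b-delta at 7 of the 10, among them Ccnt2, with 2793 bp in arid4b-delta and 2461 bp in WT, and Cfap298, with 1552 bp in arid4b-delta and 1406 bp in WT. They were lower in arid4b-delta at the other 3, Fgf8, Hdhd2 and Med17.

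Genes of the primitive streak, the stage that precedes endoderm and mesoderm, stood among the listed genes wider in WT. Of the 10 streak genes marked in both genotypes, 3 were wider in WT, namely Fgf8, Mixl1 and T, and the median ratio of the list was 1.36, beside 2.23% wider in WT and a median of 1.63 over all promoters marked in both. Mixl1, a homeobox factor of the streak, had a single peak of 772 bp in arid4b-delta and of 885 bp in WT. T (Brachyury), the T-box factor of the streak and early mesoderm, had 1023 bp in arid4b-delta and 1140 bp in WT, but its sums within 5000 bp were 1690 bp in arid4b-delta and 1538 bp in WT. For Fgf8 the sums were 1696 bp in arid4b-delta and 2148 bp in WT. Of 8 naive pluripotency genes marked in both, 1 (12.5%) was wider in WT, Klf5, with 886 bp in arid4b-delta and 973 bp in WT, but 1448 bp in arid4b-delta and 1185 bp in WT within 5000 bp.

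The endoderm list had 19 genes marked in both genotypes, with a median ratio of 1.36 and 2 (10.5%) wider in WT. Foxa2, a forkhead pioneer factor of endoderm, had 5 peaks in each genotype, the widest of 517 bp in arid4b-delta and 625 bp in WT, and 2056 bp in arid4b-delta and 2531 bp in WT within 5000 bp. Trh, which encodes thyrotropin-releasing hormone, had 269 bp in arid4b-delta and 480 bp in WT. Gsc (goosecoid), a homeobox factor of the anterior streak, had widest peaks of 872 bp in arid4b-delta and 866 bp in WT, and 1511 bp in arid4b-delta and 2098 bp in WT within 5000 bp. The sums were lower in arid4b-delta at 3 of the 19 endoderm genes (15.8%) and 2 of the 10 streak genes (20%), beside 1.22% of all promoters marked in both. The genes wider in WT were singled out after their values were seen, and no list was tested.

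Other endoderm and streak factors were wider in arid4b-delta, to differing extents. Eomes, the T-box factor that starts definitive endoderm, had 2760 bp in arid4b-delta and 1697 bp in WT, Gata6, a GATA factor of endoderm, 1404 bp in arid4b-delta and 506 bp in WT, Cxcr4, a chemokine receptor used to sort definitive endoderm, 1810 bp in arid4b-delta and 1445 bp in WT, and Hhex, a homeobox factor of anterior endoderm, 1630 bp in arid4b-delta and 1420 bp in WT. The 3 core pluripotency factors were also wider: Pou5f1 had 3170 bp in arid4b-delta and 2345 bp in WT, Sox2 2428 bp in arid4b-delta and 1424 bp in WT, and Nanog 1355 bp in arid4b-delta and 543 bp in WT.

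Promoters with H3K4me3 in a single genotype were almost all of arid4b-delta. Of 21883 protein-coding genes, 1106 (5.05%) had a promoter peak in arid4b-delta and none in WT, and 18 (0.0823%) had one in WT and none in arid4b-delta. Of the 1124 that differed, 98.4% (97.5 to 99.0%) were marked in arid4b-delta. Both genotypes marked 12071 promoters (55.2%) and neither marked 8688. With lists of equal length 944 promoters had a peak in arid4b-delta alone and 39 had one in WT alone. With the upper 50% of each list the counts were 1926 in arid4b-delta alone and 298 in WT alone. The direction turned round when, in a setting added after seeing the data, the arid4b-delta list was reduced by fold to the bases that the WT list covers: this left 9317 arid4b-delta peaks against 22224 WT peaks, and 30 promoters had a peak in arid4b-delta alone and 3278 had one in WT alone.

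The arid4b-delta-only promoters mostly had weak peaks with no WT peak near. The strongest peak at an arid4b-delta-only promoter stood at a median percentile of 30.2 of the arid4b-delta list by fold (middle 50% 18.8 to 39.9), against 76.6 for promoters marked in both. Of the 1106, 91 (8.23%) were in the upper 50% of the list. No WT peak lay within 5000 bp of the start at 926 of them (83.7%), while at 55 (4.97%) the arid4b-delta peak itself overlapped a WT peak just outside the window. Of the 18 WT-only promoters, 14 had no arid4b-delta peak within 5000 bp.

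Of the 10 strongest promoters without a WT peak within 5000 bp, 9 are described. Fam124a had a peak of 824 bp at chr14:62555349-62556172 with a fold of 20.9 in arid4b-delta and none in WT, where the nearest peak was 203904 bp away. Ndnf, which encodes a secreted neurotrophic factor, had a peak of 1335 bp at chr6:65671345-65672679 with a fold of 18.2 in arid4b-delta and none in WT. The Fam124a peak stood at the 80.6 percentile of the arid4b-delta list and the Ndnf peak at the 72.4. Plppr2 (517 bp, fold 16.5, chr9:21936982-21937498), Mafa, an activator of the insulin gene (236 bp, fold 16.0, chr15:75748016-75748251), Dio3, the deiodinase that inactivates thyroid hormone (495 bp, fold 15.3, chr12:110278642-110279136), and the growth factor gene Fgf2 (529 bp, fold 14.8, chr3:37348578-37349106) followed in arid4b-delta, with no WT peak at any. Adam12, a metalloprotease, Hoxa13, a posterior homeobox factor, and Slc6a17, a neuronal amino acid transporter, completed the 9 with folds of 14.8, 14.8 and 14.6. Each of these 9 promoters had H3K4me3 in both genotypes in mesoderm. All but Plppr2 also had H3K27me3 in endoderm of both genotypes.

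Of the 18 WT-only promoters 3 lay on X and 3 on Y, which left 12 on autosomes. The off-Y peaks whose widths are given here were narrower than the WT list median of 476 bp, but those of Uty and Ddx3y were wider. For the 3 on Y, a promoter without the mark and a stretch of Y absent from the arid4b-delta cells cannot be told apart from peak lists. Uty, the Y-linked relative of the H3K27 demethylase gene Kdm6a, had no peak in arid4b-delta and 581 bp at chrY:1245024-1245604 with a fold of 7.99 in WT. Eif2s3y, a translation initiation subunit, had none in arid4b-delta and 360 bp with a fold of 7.30 in WT, and Ddx3y, an RNA helicase, none in arid4b-delta and 707 bp with a fold of 5.91 in WT. Off the Y chromosome, Rtl8a on X had none in arid4b-delta and 392 bp with a fold of 6.95 in WT, and the kinase gene Camk1g none in arid4b-delta and at most 278 bp with a fold of 6.02 in WT. The histone genes H2bc1 and H2ac1 shared a WT peak of 161 bp with a fold of 5.58. Wnt8a, L1cam and Trmt2b had 146 bp each in WT, the smallest width in the list.

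The Polycomb mark was frequent at the arid4b-delta-only promoters. In endoderm, H3K27me3 lay at 56.9% of the 1106 (53.9 to 59.8%) in arid4b-delta and at 47.6% (44.6 to 50.6%) in WT. At promoters with H3K4me3 in both genotypes the shares were 20.8% in arid4b-delta and 18.8% in WT, at promoters with it in neither 6.42% in arid4b-delta and 3.79% in WT, and over all genes 16.9% in arid4b-delta and 14.3% in WT. Of the 1106, 505 (45.7%) had H3K27me3 in both genotypes, 124 (11.2%) in arid4b-delta alone and 21 (1.90%) in WT alone. At promoters with H3K4me3 in both genotypes these shares were 16.0%, 4.76% and 2.79%. Where H3K4me3 was in neither they were 3.07%, 3.35% and 0.714%. The H3K27me3 lists differed in size too, with 16574 peaks over 21.3 Mb in arid4b-delta and 10297 peaks over 14.1 Mb in WT, and the part of that in the shares was not tested. H3K27ac was scarce there, at 5.88% (4.56 to 7.43%) in arid4b-delta and 6.15% (4.81 to 7.73%) in WT, against 47.3% in arid4b-delta and 48.6% in WT at promoters with H3K4me3 in both.

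The same promoters were largely marked in arid4b-delta mesoderm. Mesoderm H3K4me3 lay at 93.1% (91.5 to 94.5%) of the 1106 in arid4b-delta and at 54.3% (51.4 to 57.3%) in WT. Over all genes it lay at 61.2% in arid4b-delta and 57.7% in WT. All genes include promoters with a WT endoderm peak, which the 1106 lack by definition. In WT, mesoderm H3K4me3 lay at 99.2% of promoters marked in both endoderm lists and at 0.541% of those marked in neither. The WT share of the 1106 was slightly below that of all genes and far above that of promoters marked in neither. In mesoderm 594 of them had the mark in both genotypes, 436 in arid4b-delta only, 7 in WT only and 69 in neither. The 436 were 39.4% of the endoderm arid4b-delta-only promoters and 56.0% of the mesoderm ones, which numbered 778 among all 21883 genes. Of the 18 WT-only promoters, 4 were WT only in mesoderm, 3 of them the Y-linked genes and the other Wnt8a. In mesoderm 7 of the 18 were marked in both genotypes and 7 in arid4b-delta only, the opposite direction.

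**Figure D3:**
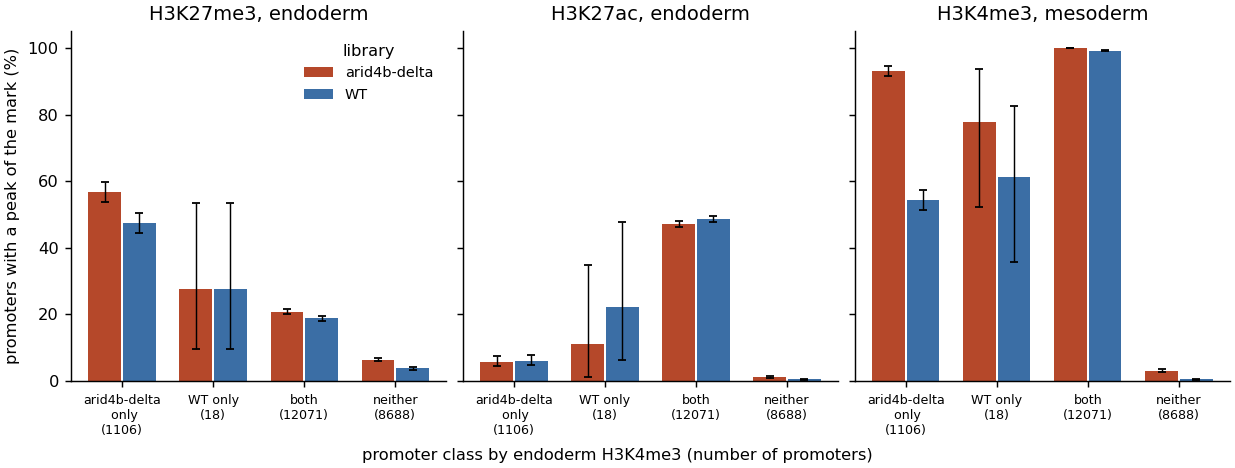
Share of promoters (%) with endoderm H3K27me3, endoderm H3K27ac or mesoderm H3K4me3 in arid4b-delta (left bar) and WT (right bar) libraries, by endoderm H3K4me3 class; error bars are exact Clopper-Pearson 95% intervals. The 1106 arid4b-delta-only promoters have H3K27me3 at 56.9% in arid4b-delta and 47.6% in WT, and H3K27ac at 5.88% in arid4b-delta and 6.15% in WT.

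Their sequences lay between the others in CpG content. Over promoters with a single listed start, the 300 bases around it held a median of 14 CpG dinucleotides at 648 arid4b-delta-only promoters and 9 at 11 WT-only ones, against 23 at 7773 marked in both and 3 at 6298 marked in neither. A ratio of observed to expected CpG over 0.6 was found at 45.2% of arid4b-delta-only promoters, 27.3% of WT-only ones, 82.1% of those marked in both and 4.19% of those marked in neither, with 47.1% over all. Within the arid4b-delta-only class the share was 65.6% of the 305 with WT H3K27me3, with a median of 20 CpG, and 27.1% of the 343 without it, with a median of 11. The Hoxa13 and Fam124a windows, with 45 and 40, belong to the CpG-rich kind.

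Searched on both strands, GGGCGG, the core of the GC box, occurred in 57.6% of arid4b-delta-only windows, 71.3% of those marked in both, 11.9% of those marked in neither and 45.3% of all. TATAAA occurred in 9.26% of arid4b-delta-only windows, 6.11% of those marked in both, 24.8% of those marked in neither and 14.3% of all. CCAAT occurred in 35.6% of arid4b-delta-only windows, 40.3% of those marked in both, 39.1% of those marked in neither and 39.6% of all. These matches describe letters in a window and not bound factors.

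By gene list, the Hox genes, which set position along the body axis and are classic Polycomb targets, held the largest share. Of 38 Hox promoters, 18 (47.4%, beside 5.05% of all genes) were marked in arid4b-delta only, 7 in both and none in WT only. A start was listed for 22 of the 38, and the others were judged by both gene ends. All 38 had H3K27me3 in both genotypes and none had H3K27ac in either. The arid4b-delta-only promoters were 2 of the Hoxa, 4 of the Hoxb, 7 of the Hoxc and 5 of the Hoxd cluster, and 14 of the 18 had no WT peak within 5000 bp. Their widest peaks measured 171 to 788 bp (median 367.5 bp) in arid4b-delta, with none in WT, and the strongest were at the 28.5 percentile of the list in the median. The Hox count was followed across settings only after seeing the data, and the 18 moved by over 1.5 times in 3 of them. It was 5 when the weaker 50% of peaks in either list were left out, which was a planned setting. It was 0 when the arid4b-delta list was reduced to the bases of the WT list, and 8 of the 22 Hox genes with a listed start. Those last settings were themselves added after seeing the data. Since neighbouring Hox genes share clusters, they are not independent loci.

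The widest of these peaks was that of Hoxc6, of 788 bp in arid4b-delta, but a WT peak lay just outside the window, 1008 bp from the end of the gene. Hoxd3 had 737 bp, Hoxc5 653 bp, Hoxd9 639 bp, Hoxc13 624 bp and Hoxc4 585 bp in arid4b-delta, with the nearest WT peaks between 14615 and 52476 bp away; these 5 and Hoxc6 were picked after their values were seen. At the 7 Hox promoters marked in both, the widest peak measured 427 to 916 bp (median 831 bp) in arid4b-delta and 149 to 360 bp (median 322 bp) in WT. Hoxa5 had 873 bp in arid4b-delta and 268 bp in WT, and Hoxa7 had 916 bp in arid4b-delta and 334 bp in WT. In mesoderm, 12 of the 18 were marked in both genotypes, 5 in arid4b-delta only and 1, Hoxd10, in WT only.

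**Figure D4:**
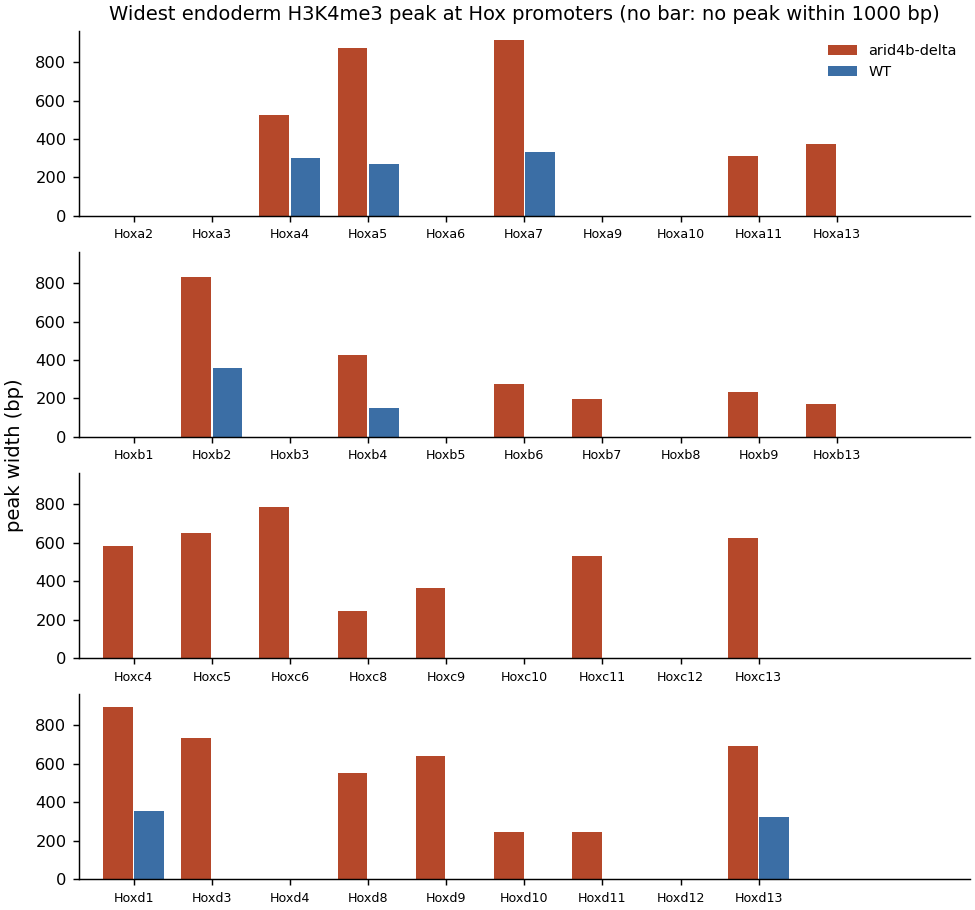
Width (bp) of the widest endoderm H3K4me3 peak at the promoters of 38 Hox genes, by cluster, in arid4b-delta (left bar) and WT (right bar). The window is 1000 bp either side of a listed start (22 genes) or, where none was listed, of both gene ends. No bar means no peak. Bars for arid4b-delta stand at 25 genes and for WT at 7.

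Regulators of other lineages also had shares above the 5.05% of all genes. Of 26 mesoderm genes, 6 (23.1%) were marked in arid4b-delta only and 12 in both, with a median width ratio of 3.22 at those 12. Of the 6, Gata2, a blood stem cell factor, had 647 bp in arid4b-delta and none in WT, the vascular smooth muscle coactivator Myocd 567 bp, the kidney and lateral plate factor Osr1 457 bp, the heart and pharyngeal factor Tbx1 384 bp, the platelet-derived growth factor receptor Pdgfra 190 bp and the heart factor Hand1 153 bp, each with none in WT within the window. WT peaks lay 3759 bp from Gata2 and 3679 bp from Pdgfra, and the other 4 had none within 5000 bp. Hand1 stood at the 0.309 percentile of the list. Foxf1, a forkhead factor of lateral mesoderm, had 1268 bp in arid4b-delta and 254 bp in WT.

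Of 20 neuroectoderm genes, 5 (25%) were marked in arid4b-delta only and 14 in both, with a median ratio of 2.87. The midbrain factor En1 had 709 bp in arid4b-delta and none in WT, with the nearest WT peak 480844 bp away. Nkx2-2 had 507 bp, Pax6, the master factor of eye development, 409 bp, Neurog1 375 bp and Dbx1 173 bp in arid4b-delta, with none in WT within the window, and a WT peak lay 2107 bp from Nkx2-2. Neurog2, a proneural factor, had 1217 bp in arid4b-delta and 195 bp in WT, and the cerebellar zinc-finger factor Zic1 1125 bp in arid4b-delta and 165 bp in WT. All 20 had H3K27me3 in both genotypes and none had H3K27ac. Foxf1, Neurog2 and Zic1 were picked after their values were seen.

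Neuronal channels and receptors had 5 of 32 (15.6%) in arid4b-delta only, namely the channel genes Kcna1 and Kcnj6, the glutamate receptor gene Gria2 and the dopamine receptor genes Drd1 and Drd2, and 17 in both with a median ratio of 3.98, the highest of the lists with at least 2 such genes. The potassium channel gene Kcna1 had 1446 bp in arid4b-delta and none in WT, and Drd1 714 bp in arid4b-delta and none in WT. The glutamate receptor gene Grin2b, also picked after its values were seen, had 1581 bp in arid4b-delta and 153 bp in WT. H3K27me3 lay at 24 of the 32 in arid4b-delta and 20 in WT.

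The endoderm list itself had 4 of 31 promoters (12.9%) with a peak in arid4b-delta alone. Sox17, the defining transcription factor of definitive endoderm, had 3 peaks in arid4b-delta, the widest of 2186 bp at chr1:4491794-4493979, and none in WT within 1000 bp. However, a WT peak lay 1346 bp away, and within 5000 bp of a gene end the sums were 2231 bp in arid4b-delta and 1072 bp in WT, so Sox17 was marked in both genotypes nearby. The keratin gene Krt19 had 708 bp, the endodermal Sox factor Sox7 641 bp and Nkx2-1, a factor of lung and thyroid, 551 bp in arid4b-delta, each with none in WT within 5000 bp.

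Signalling genes of the Nodal, Wnt, BMP and FGF pathways were mostly marked in both (38 of 44, median ratio 1.64). The 4 in arid4b-delta only (9.09%, beside 5.05% of all genes) were Wnt5a with 1300 bp, Wnt3a with 552 bp, Fgf2 with 529 bp and Fgf10 with 262 bp in arid4b-delta, and none in WT. A WT peak lay 1047 bp from the Wnt5a end. Wnt3a, which is active in the posterior streak, and Mesp1, the first factor of cardiac mesoderm, were the 2 of 18 streak genes (11.1%) in arid4b-delta only, Mesp1 with 370 bp in arid4b-delta and none in WT. Wnt8a, a ligand of the posterior streak, was the streak gene in WT only, with none in arid4b-delta and 146 bp in WT.

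Of 14 naive pluripotency genes, 2 (14.3%, beside 5.05% of all genes) were in arid4b-delta only and 8 in both. Zfp42 (Rex1), a marker of naive stem cells, had 294 bp in arid4b-delta, at the 23.9 percentile of the list, and none in WT, and Nr5a2, a nuclear receptor that regulates Pou5f1, had at most 290 bp in arid4b-delta and none in WT within the window, with a WT peak 4182 bp away. None of 16 general pluripotency and 11 primed epiblast genes was marked in a single genotype. Trophoblast genes had 3 of 13 (23.1%) in arid4b-delta only, namely Tfap2a, Ascl2 and Hand1, but WT peaks lay 2157 bp from Tfap2a and 1047 bp from Ascl2. Fibroblast genes had 2 of 10 (20%), Col1a1 and Loxl1. Adhesion and matrix genes had 2 of 26 (7.69%), Vtn and Cldn4, a share near that of all genes, with a WT peak 1449 bp from Vtn, and L1cam was in WT only. Extraembryonic endoderm genes had none of 13, and of 16 germline genes 1 was marked in both and 15 in neither.

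Promoters of genes for complexes that act on the mark or with Arid4b did not differ in the presence of an H3K4me3 peak. The complexes themselves were not measured. All 22 Sin3-HDAC genes, 20 of 22 genes of H3K4 methyltransferases and demethylases and all 29 Polycomb genes were marked in both genotypes, with median width ratios of 1.57, 1.53 and 1.52. Of 20 housekeeping genes, 18 were marked in both with a median ratio of 1.46. The exceptions, Actb and Ywhaz, had no peak within 1000 bp of their outermost annotated ends in either genotype: the nearest for Actb was 1170 bp away in arid4b-delta and 1212 bp in WT.

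**Figure D5:**
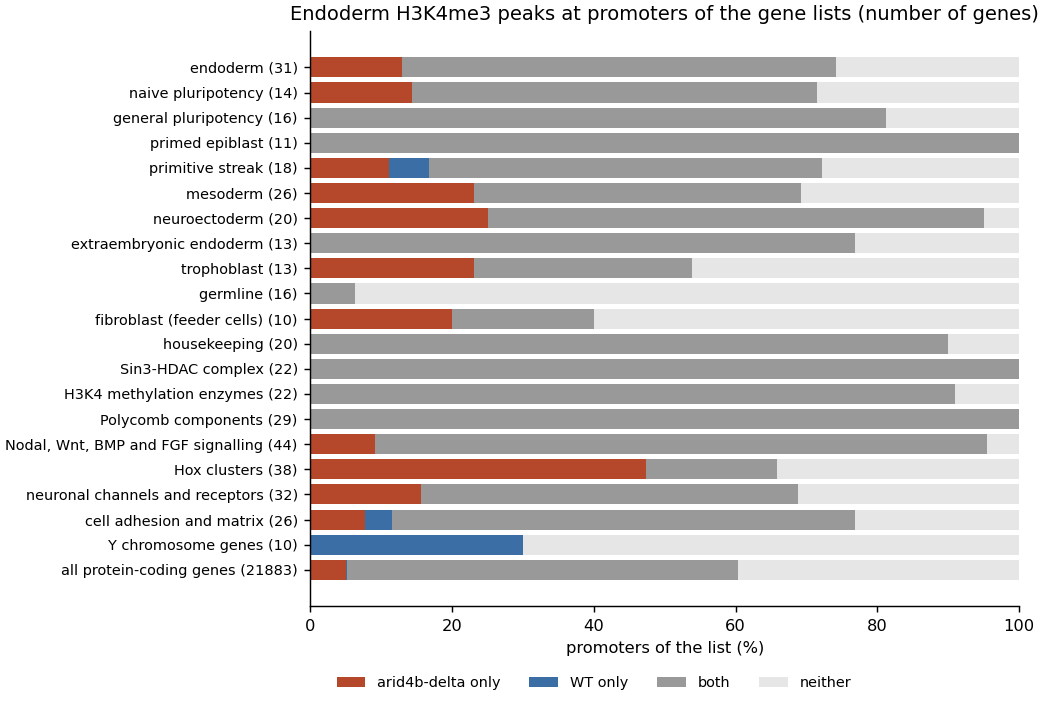
Share of promoters (%) of each gene list with endoderm H3K4me3 in arid4b-delta only, WT only, both or neither, with the number of genes in brackets. The Hox bar has 47.4% in arid4b-delta only, beside 5.05% for all protein-coding genes in the last bar.

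Away from promoters, the arid4b-delta list was richer in distal peaks, with 15.1% of its peaks distal against 6.67% of WT peaks. Of the 8728 arid4b-delta-only peaks, 3560 (40.8%, 39.8 to 41.8%) lay at promoters, 2392 (27.4%) at intermediate positions and 2776 (31.8%, 30.8 to 32.8%) over 2500 bp from every gene end and start. Of the 16520 arid4b-delta peaks shared with WT, 83.3% lay at promoters and 6.25% were distal. The arid4b-delta-only peaks had a median width of 233 bp, against 1023 bp for the shared ones, and a median fold percentile of 18.8, against 67.3. A WT peak lay within 1000 bp of 41.2% of them, and none lay within 5000 bp of 49.5%. Of the 376 WT-only peaks, 106 (28.2%) lay at promoters, 95 (25.3%) at intermediate positions and 175 (46.5%) were distal. A high distal share was thus found among the unshared peaks of both lists.

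Distal arid4b-delta-only peaks often coincided with H3K27ac of the same genotype. Of the 2776, 1392 (50.1%) overlapped an H3K27ac peak in arid4b-delta endoderm and 363 (13.1%) one in WT endoderm. The H3K27ac lists themselves held 35806 peaks over 11.2 Mb in arid4b-delta and 14167 peaks over 5.24 Mb in WT, and the part of that difference in the overlap was not tested. Mesoderm H3K4me3 overlapped 71.1% in arid4b-delta and 14.9% in WT, and H3K27me3 21.0% in arid4b-delta and 16.1% in WT. At the 1032 distal arid4b-delta peaks shared with WT, H3K27ac overlapped 40.8% in arid4b-delta and 35.1% in WT, and mesoderm H3K4me3 97.3% in arid4b-delta and 80.0% in WT. At the 175 distal WT-only peaks, H3K27ac overlapped 61.1% in arid4b-delta and 50.3% in WT, and mesoderm H3K4me3 18.3% in arid4b-delta and 20.6% in WT. Distal arid4b-delta-only peaks lay inside a gene in 41.2% of cases, and shared ones in 55.0%.

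The strongest distal arid4b-delta peak with no WT peak within 5000 bp was 1154 bp wide at chr9:20543937-20545090, with a fold of 16.0, outside any gene and 22517 bp from the start of Zfp266. The next was 759 bp wide at chr8:88454008-88454766, with a fold of 15.8, outside any gene and 72866 bp from Nkd1, an inhibitor of Wnt signalling. A peak of 628 bp with a fold of 14.2 lay near Pcdhga1 in the clustered protocadherins, and peaks inside Mast1 and Niban3 had folds of 13.9 and 13.2. The strongest such WT peaks were narrower, the first of 318 bp with a fold of 6.26 at chr9:99893739-99894056, 17568 bp from Sox14, and the other 4 between 146 and 171 bp with folds of 5.91 to 6.26.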

How the data were processed

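The 2 endoderm H3K4me3 libraries, and for comparison the other 10 ChIP libraries, were used as deposited peak lists. Per the submitters' processing notes the authors worked with Bowtie2, Picard and MACS2 on build mm10; versions and settings are not given in the sources used here. The authors' lists hold 1 row per peak: a fold enrichment (a ratio over background), a −log10 q value and the offset of the summit in bp, as deposited. Peaks were called per library, and the lowest −log10 q was 2.07. A few rows on other contigs, 24 in arid4b-delta and 68 in WT, were left out. Total read counts are unknown.

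Transcription start sites of 17491 protein-coding genes came from a RefSeq promoter table of GRCm38.p6 (mm10). For the other 4392 genes, among them all of chromosome 18, no strand was at hand and both gene ends were used. Whether a peak is exonic or intronic was not analysed here. Distal means over 2500 bp from every gene end and start. Overlaps were computed in Python 3.11.15 (numpy 2.4.6, pandas 2.3.3, scipy 1.17.1) and checked on simulated intervals, and plotted with matplotlib 3.10.9. Folds ranked peaks within a list and were not compared between lists. Shares have exact Clopper-Pearson intervals at 95%. No genotype test was possible with 1 library per group.

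The members and the 20 gene lists (431 of 432 entries matched, 420 distinct genes, 11 in more than 1 list) were chosen with earlier results of these data known. Named genes are listed genes marked in a single genotype, the first 30 per direction in list order, the 10 strongest per direction without a peak of the other genotype within 5000 bp, 15 genes given in any case (Arid4b and lineage factors), the 5 widest peaks per genotype, the 10 largest width differences per direction and the 5 strongest distal peaks per genotype. Single-genotype genes after the 30th in list order (Hox genes past Hoxb7, neuronal genes, Vtn and Cldn4) were named after their values were seen. Symbols that are only placeholders were counted and not named, and 4 genes that had a peak in a single genotype (3 of them listed) were later left out of the lists and names and are not reported here.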

Additional observations from a re-analysis of the deposited data

Results flagged for a closer look

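At 12 named genes the promoter had H3K4me3 in a single genotype in both lineages, but in opposite genotypes, and the difference between lineages was not tested. In 5 of them endoderm had a peak in WT alone and mesoderm in arid4b-delta alone, with endoderm WT folds of 4.87 at H2-Ab1, 5.26 at Jsrp1, 4.17 at L1cam, 3.58 at Tgm2 and 3.82 at Trmt2b. At H2-Ab1 and Jsrp1 an arid4b-delta endoderm peak lay just outside the window, 1336 bp from the start of H2-Ab1 and 1132 bp from that of Jsrp1.

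In the other 7 endoderm had a peak in arid4b-delta alone and mesoderm in WT alone, with endoderm arid4b-delta folds of 5.41 at Adgrg2, 4.24 at Arhgef6, 5.11 at Drd4, 5.71 at Hoxd10, 5.45 at Pcdhac1, 28.0 at Ss18 and 4.84 at Styk1. Ss18, which encodes a chromatin remodelling subunit, had a WT endoderm peak 1020 bp from a gene end.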

How the results depend on the processing

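Under every setting that left both lists whole, in equal numbers, in their upper 50% or without peaks under 500 bp, more promoters were marked in arid4b-delta alone than in WT alone. The setting with equal bases, chosen after seeing the data, turned this round: 30 promoters in arid4b-delta alone and 3278 in WT alone, by construction from 9317 against 22224 peaks. It also gave overlapping shares of 99.8% for arid4b-delta and 60.2% for WT, a promoter share of arid4b-delta-only peaks of 65.2%, a median width ratio of 1.56, 2.80% of promoters wider in WT, 0 Hox promoters in arid4b-delta alone and WT H3K27me3 at 20% of the 30. Lists of equal length gave shares of 73.1% for arid4b-delta and 97.3% for WT, 39 WT-only promoters and a promoter share of 44.8%. The upper 50% of each list gave 74.1% for arid4b-delta and 94.7% for WT, 1926 arid4b-delta-only and 298 WT-only promoters, a promoter share of 79.6%, a width ratio of 1.56, 5 Hox promoters and H3K27me3 at 34.4%. Peaks of at least 500 bp gave 99.5% for WT, 2741 arid4b-delta-only promoters, a promoter share of 71.5% and H3K27me3 at 39.1%. When 50% of a peak had to be covered, the shares were 52.6% for arid4b-delta and 97.5% for WT and the promoter share 49.2%, and when a peak within 1000 bp counted as shared they were 79.7% for arid4b-delta and 99.2% for WT and the promoter share 28.2%. The promoter share was 31.8% with windows of 500 bp, 53.7% with 2500 bp, 38.8% with either gene end and 32.0% with listed starts only, where 8 of the 22 Hox genes that have such a start were marked in arid4b-delta alone. With at least 500 bp of the window covered, 2039 promoters were arid4b-delta only and 7 WT only, with H3K27me3 at 42.5%. Bases summed within 5000 bp gave a width ratio of 1.496 and 1.22% with more bases in WT. No cause of these shifts was tested.

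Of 68 named single-genotype promoters, 65 kept their class with lists of equal length, 13 in the upper 50% and 35 with peaks of at least 500 bp. With no other peak within 5000 bp 55 kept it, and with equal bases 15. None changed to the opposite genotype, but only the setting with either gene end could have produced such a change. The other settings only removed peaks or genes or changed the window around the same starts. No paired analysis was possible because each genotype has 1 library. Counting every listed row changed nothing, since no interval repeats. Depth is unknown, so a promoter without a peak was not shown to lack the mark.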

Other observations

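The share of promoters marked in arid4b-delta alone varied among autosomes, from 3.65% on chromosome 14 to 10.4% on chromosome 18, where every gene was judged by both of its ends. Chromosome 15, which holds the Hoxc cluster, had 7.09% and chromosome 3 had 6.92%. Chromosome X, with its higher ratio of peak numbers, had 5.69%, close to the 5.05% of all genes. In the WT-only direction chromosomes X and Y had 3 promoters each of the 18.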
